A study of Homo sapiens with 12 samples.

Results

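The genes described here are 10 epithelial genes chosen by symbol from the 19040 genes with values: the keratins KRT7, KRT8, KRT18 and KRT19, the claudins CLDN4, CLDN6 and CLDN7, the adhesion genes EPCAM and CDH1, and S100A14. All 10 symbols were found. They were picked because S100A14, KRT7 and CLDN4 fell with both compounds at day 12. Every comparison of a compound with DMSO at day 12 is therefore given as a description with no test. So is every comparison of day 12 with day 8 within a treatment. Whether the difference between the compounds changed between the days was tested, by a term chosen after seeing the data.

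H9 is an established human embryonic stem cell line, and all 12 libraries came from it while it was driven toward heart cells. By the labels there are 6 groups of 2 libraries: the solvent DMSO, F-53B at 60 µM and PFOS at 60 µM, each taken at day 8 and at day 12, with the compounds present from day 0. The compounds are related in structure: F-53B carries an ether oxygen and a chlorine in its fluorinated chain, which PFOS, the fully fluorinated alkyl sulfonate, lacks. The study asks whether these compounds harm early heart development, and its title names a turn toward epicardial cells and WNT signalling. Nothing in the labels says whether the replicates grew as separate cultures. The p-values therefore reflect the spread between these libraries alone, which may be technical. Values are FPKM, a scale of fragments per transcript length and sequencing total on which levels of different genes can be compared. A library summed to 389249 to 439919 FPKM and had 12915 to 13292 genes at 1 FPKM or more. The depth behind them is unknown, because the files hold no counts. Cardiomyocyte markers, 12 genes with TNNT2, MYH6 and MYL7 among them, summed to between 1250.0 FPKM (day 8 F-53B) and 12390.0 FPKM (day 12 DMSO). The day 8 F-53B sum was mostly MYL7 (978 and 935 FPKM), while the defining heart genes MYH6 (11.5 and 5.76 FPKM) and NKX2-5 (0.88 and 1.06 FPKM) were low there.

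Keratins are intermediate filament proteins that assemble as heteropolymers of a type I chain (KRT18, KRT19) and a type II chain (KRT7, KRT8). KRT8 and KRT18 are the pair of simple, one-layered epithelia, and mesothelia such as the epicardium, the outer layer of the heart, also make them. Claudins are membrane proteins that seal tight junctions: CLDN4 and CLDN7 belong to mature lining epithelia, and CLDN6 to embryonic epithelia and stem cells. EPCAM is an adhesion molecule of embryonic stem cells, gut endoderm and many epithelia. CDH1 is E-cadherin, the adhesion protein of adherens junctions. S100A14 belongs to the S100 family of small calcium-binding proteins and is made in lining epithelia.

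Upstream sequence is shown for S100A14 and CLDN7, which moved together over the libraries, and for KRT8, which moved against them. The RefSeq promoter table (GRCh38.p14) held entries for 5 of the 10 genes: S100A14, KRT8, CLDN4, CLDN6 and CLDN7. The 250 bases before each start were searched on both strands for CACCTG, which reads as CAGGTG on the other strand, the E-box bound by the SNAI and ZEB repressors of epithelial genes, and for AACCGGTT, which reads the same on both strands and is bound by grainyhead factors that activate them. Neither motif overlaps the other. Capitals mark E-box matches. S100A14 is shown from chr1:153616326-153616575 and KRT8 from chr12:52926470-52926719, both on the minus strand. CLDN7 has an outer start, shown from chr17:7263214-7263463, and an inner start, of which only the last 30 bases are shown, chr17:7262479-7262508, both on the minus strand.
S100A14: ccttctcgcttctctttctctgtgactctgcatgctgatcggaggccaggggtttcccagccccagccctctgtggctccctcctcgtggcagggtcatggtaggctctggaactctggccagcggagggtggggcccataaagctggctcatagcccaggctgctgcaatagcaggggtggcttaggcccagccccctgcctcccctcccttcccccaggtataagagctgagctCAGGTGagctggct
KRT8: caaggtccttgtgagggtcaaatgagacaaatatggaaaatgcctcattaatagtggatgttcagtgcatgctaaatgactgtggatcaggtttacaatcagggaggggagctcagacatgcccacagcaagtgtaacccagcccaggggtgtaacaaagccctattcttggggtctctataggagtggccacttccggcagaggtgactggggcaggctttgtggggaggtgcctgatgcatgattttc
CLDN7 outer start: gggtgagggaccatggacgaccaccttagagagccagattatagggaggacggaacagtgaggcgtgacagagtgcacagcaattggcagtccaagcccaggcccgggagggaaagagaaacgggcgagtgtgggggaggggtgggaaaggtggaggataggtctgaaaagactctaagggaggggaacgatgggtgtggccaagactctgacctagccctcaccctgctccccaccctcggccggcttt
CLDN7 inner start: tacatatactCAGGTGcgcccCACCTGtcc
S100A14 held 1 E-box match, with its first letter 14 bases before the start, in a stretch where 30 of the 250 bases lie in an annotated exon of another S100A14 transcript. The inner start of CLDN7 held 4 matches, 2 of them in the bases shown, and that window lies wholly within CLDN7 exons. No match was found before KRT8, CLDN4, CLDN6 or the outer start of CLDN7, and the KRT8 window lies inside the gene, clear of exons. CLDN4 and CLDN6, whose sequence is not shown, also moved with S100A14 (r = 0.93 and 0.741, against 0.882 for CLDN7). The sequences shown thus include each gene with a match and leave out CLDN4 and CLDN6, which had none. The windows of CLDN4 and CLDN6 lie wholly within annotated exons of those genes. Over all 35116 promoters of this length, 17.5% held the E-box and 0.117% held the grainyhead motif, which none of the 5 genes had. Binding of any of these factors at the sequences shown was not tested.

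The 10 genes fell into groups that went opposite ways. S100A14, EPCAM, CLDN4, CLDN6 and CLDN7 were lower with F-53B than with DMSO in every library of both days, whereas KRT8, KRT18 and CDH1 were higher in every one. KRT7 was higher with F-53B at day 8 and lower at day 12, and KRT19 hardly differed between treatments. The rows of panels in the plot of levels by library follow this division.

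S100A14 (gene ID 57402) lies on chromosome 1 from 153614255 to 153616986 on the minus strand (positions of genes here are from GENCODE 29 on GRCh38). Its level was 46.8 and 26.8 FPKM in the day 12 DMSO libraries. The day 12 F-53B libraries held 0.17 FPKM and a listed 0, and the PFOS libraries 0.69 and 0.88 FPKM. At day 8 the level was 0.40 and 0.91 FPKM with DMSO, 0.05 FPKM and 0 with F-53B, and 0.11 and 0.40 FPKM with PFOS. The gene thus stood above 1 FPKM in 2 of 12 libraries only, and no other group overlapped those. Below day 12 DMSO, each group in the order of means overlapped the next, from day 12 PFOS (0.79 FPKM) through day 8 DMSO, day 8 PFOS and day 12 F-53B to day 8 F-53B (0.025 FPKM).

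The S100 genes on either side of S100A14 were expressed in every library. S100A16, which lies 1109 bases away, was 36.7 and 30.2 FPKM with DMSO at day 12, 22.7 and 19.0 FPKM with F-53B and 17.1 and 18.9 FPKM with PFOS, and was at least 11.1 FPKM in every library. Like S100A14 it was highest with DMSO at day 12 without overlap, but at day 8 it rose with F-53B by 0.65 on the log2(FPKM + 1) scale (limma adjusted p = 0.00131). S100A13, 1800 bases away on the other side, held 58.3 to 107.7 FPKM in all 12 libraries. The most abundant member of the family was S100A10, the partner of annexin A2. It rose with F-53B at day 8 by 1.15 on the log2(FPKM + 1) scale (SE 0.10, limma adjusted p = 1.63e-05).

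CLDN4 (gene ID 1364; chromosome 7, 73799542 to 73832693, plus strand) was 4.67 and 4.66 FPKM with DMSO at day 12. The F-53B libraries held 0.22 and 0.16 FPKM and the PFOS libraries 0.68 and 0.36 FPKM. At day 8 the values were 1.02 and 1.79 FPKM with DMSO, 0.09 and 0.15 FPKM with F-53B, and 0.32 and 0.19 FPKM with PFOS. Both compounds lay below DMSO in every library of the same day, and only DMSO libraries reached 1 FPKM. CLDN7 (gene ID 1366; chromosome 17, 7259903 to 7263983, minus strand) had nearly the same order of groups, with 5.77 and 4.94 FPKM for DMSO at day 12, 0.12 FPKM in each F-53B library and 0.46 and 0.71 FPKM for PFOS. At day 8 CLDN7 was 0.98 and 3.42 FPKM with DMSO, so those libraries differed from each other, 0.36 and 0.12 FPKM with F-53B, and 0.52 and 0.70 FPKM with PFOS. None of the groups of either claudin overlapped DMSO of the same day.

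CLDN6 (gene ID 9074; chromosome 16, 3014712 to 3020071, minus strand) was the main claudin of these cells, with 48.0% to 85.0% of all claudin FPKM in a library. It was 172.1 and 171.7 FPKM with DMSO at day 12, 43.3 and 36.4 FPKM with F-53B, and 131.1 and 153.7 FPKM with PFOS. At day 8 it was 90.04 and 95.4 FPKM with DMSO, 53.6 and 55.1 FPKM with F-53B, and 51.0 and 62.3 FPKM with PFOS. The compounds overlapped each other at day 8 and were far apart at day 12, when F-53B held the lowest level of all groups. From day 8 to day 12 the mean went from 92.7 to 171.9 FPKM with DMSO and from 56.7 to 142.4 FPKM with PFOS, but from 54.4 to 39.8 FPKM with F-53B.

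EPCAM (gene ID 4072; chromosome 2, 47345158 to 47387601, plus strand) was graded by treatment. Its level was 39.9 and 40.4 FPKM with DMSO at day 12, 22.6 and 23.7 FPKM with PFOS, and 9.38 and 6.89 FPKM with F-53B. At day 8 the same order held, with 18.2 and 25.9 FPKM for DMSO, 10.5 and 12.9 FPKM for PFOS, and 5.42 and 4.65 FPKM for F-53B. No 2 treatments overlapped on either day.

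KRT8 (gene ID 3856) and KRT18 (gene ID 3875) carry most of the keratin of these cells and lie side by side on chromosome 12, from 52897187 to 52949954 on the minus strand and from 52948871 to 52952901 on the plus strand. The annotated genes overlap, and how reads were assigned by strand is not given in the sources used here, so reads of the overlap could fall to either gene. Processed pseudogenes of both could also exchange reads with them, as could the near relatives CLDN3 and CLDN4, and CLDN6 and CLDN9, so the separate values of these genes are less certain. KRT8 was 1149 and 1101 FPKM with DMSO at day 8, 1858 and 1878 FPKM with F-53B, and 1469.5 and 1301 FPKM with PFOS. At day 12 it was 474 and 485 FPKM with DMSO, 1197 and 1402 FPKM with F-53B, and 784 and 641 FPKM with PFOS. On both days the order was F-53B, PFOS, DMSO, with no overlap.

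KRT18 kept the same order. It was 601.7 and 600.1 FPKM with DMSO at day 8, 919.5 and 864 FPKM with F-53B, and 772 and 704 FPKM with PFOS. At day 12 the values were 243 and 246 FPKM with DMSO, 565 and 602 FPKM with F-53B, and 351 and 307 FPKM with PFOS. The level of KRT18 with F-53B at day 12 overlapped that of DMSO at day 8, and no other neighbours in its order of groups did. Both keratins were lower at day 12 than at day 8 under each treatment: the mean of KRT8 at day 12 was 0.426 of that at day 8 with DMSO, 0.514 with PFOS and 0.696 with F-53B.

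KRT19 (gene ID 3880; chromosome 17, 41523617 to 41528308, minus strand), a type I keratin without a tail domain, differed between days and hardly between treatments. At day 8 it was 421 and 343 FPKM with DMSO, 437 and 434 FPKM with F-53B, and 346 and 355 FPKM with PFOS. At day 12 the values were 165 and 158 FPKM, 164 and 187 FPKM, and 211 and 154 FPKM in the same order of groups. All day 8 libraries lay above all day 12 libraries, and the 3 treatments of day 12 overlapped. KRT15, its neighbour 1087 bases away, was at most 0.17 FPKM.

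KRT8, KRT18 and KRT19 together made up 98.3% to 99.4% of the FPKM of all 22 type II and 20 type I keratins with values, so simple-epithelium keratins were nearly all of the keratin message in each library. The ratio of KRT8 to KRT18 stayed between 1.83 and 2.33 in the 12 libraries. The ratio of KRT19 to KRT18 was 0.678 and 0.640 with DMSO at day 12, 0.599 and 0.503 for PFOS, and 0.290 and 0.310 for F-53B. The day 8 ratios were 0.699 and 0.571 for DMSO, 0.476 and 0.503 for F-53B and 0.448 and 0.504 for PFOS. The day 12 F-53B libraries therefore held the least KRT19 per KRT18 of any group.

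KRT7 (gene ID 3855; chromosome 12, 52232520 to 52252186, plus strand), the other type II keratin of simple epithelia, was low throughout. At day 8 it was 0.60 and 0.65 FPKM with DMSO, 2.0 and 1.74 FPKM with F-53B, and 1.59 and 0.49 FPKM with PFOS. At day 12 it was 5.57 and 3.79 FPKM with DMSO, 2.11 and 2.64 FPKM with F-53B, and 0.72 and 0.31 FPKM with PFOS. F-53B thus lay above DMSO at day 8 and below it at day 12, and the PFOS libraries of day 8 lay on both sides of DMSO.

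CDH1 (gene ID 999; chromosome 16, 68737225 to 68835548, plus strand) was 6.95 and 6.60 FPKM with DMSO at day 8, 16.8 and 21.6 FPKM with F-53B, and 9.24 and 5.82 FPKM with PFOS. At day 12 it was 5.78 and 6.30 FPKM with DMSO, 13.8 and 29.8 FPKM with F-53B, and 3.19 and 3.13 FPKM with PFOS. The compounds lay on opposite sides of DMSO at day 12. The F-53B libraries of that day were far apart (SD 11.3 FPKM), and each still exceeded all DMSO and PFOS libraries. CDH3, or P-cadherin, which ends 14608 bases before CDH1, was more abundant, with a mean of 129.7 FPKM over all libraries, and CDH2, or N-cadherin of heart muscle, had a mean of 136.2 FPKM.

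At day 8, F-53B was compared with DMSO in libraries that the choice of genes had not used. KRT8, KRT18, KRT7 and CDH1 rose and S100A14, EPCAM, CLDN4, CLDN6 and CLDN7 fell by the test (limma on log2(FPKM + 1), Benjamini-Hochberg adjusted p under 0.05 over 14080 genes). S100A14 reached the filter on low values through the day 12 DMSO libraries alone and CLDN4 and CLDN7 through DMSO libraries alone, so falls against DMSO in these 3 are not counted against the background. Of the other 7 genes 6 passed, 4 higher and 2 lower (median of the 7, 0.57), against 44% of all genes tested (median 0.02). EPCAM fell by 1.92 (log2 scale, SE 0.17, adjusted p = 1.79e-05). CLDN7 fell by 1.26 (SE 0.29, adjusted p = 0.00564), CLDN4 by 1.08 (SE 0.16, adjusted p = 0.000265), CLDN6 by 0.76 (SE 0.11, adjusted p = 0.000275) and S100A14 by 0.67 (SE 0.23, adjusted p = 0.0368). For the claudins CLDN4 and CLDN7 and for S100A14, all near 0, the added 1 FPKM makes these changes smaller than the ratio of levels. With an added 0.1 FPKM the changes were -2.74 for CLDN4, -2.62 for CLDN7 and -2.54 for S100A14, all beyond the -2.09 of EPCAM. CDH1 rose by 1.37 (SE 0.32, adjusted p = 0.00889), KRT7 by 0.82 (SE 0.24, adjusted p = 0.0179), KRT8 by 0.73 (SE 0.11, adjusted p = 0.000246) and KRT18 by 0.57 (SE 0.08, adjusted p = 0.000249). KRT19 differed by 0.20 (95% interval -0.10 to 0.49, adjusted p = 0.255). The S100A14 call ended without either day 8 F-53B library or without day 8 DMSO replicate 2 (adjusted p up to 0.239) and with no filter (0.0553), that of KRT7 without any 1 of the 4 libraries (up to 0.0925), and that of CDH1 without F-53B replicate 2 (0.0624). The change of CLDN7 was -0.68 without DMSO replicate 2 (adjusted p = 0.0129).

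With PFOS at day 8, EPCAM fell by 0.85 on the log2 scale (SE 0.17, limma adjusted p = 0.0143), CLDN4 by 0.92 (SE 0.16, adjusted p = 0.00662) and CLDN6 by 0.71 (SE 0.11, adjusted p = 0.00415). Of the 7 genes that did not need DMSO libraries to pass the filter these are 2, EPCAM and CLDN6, against 6.77% of all genes, of which 54.6% of the called were higher, or 43.4% after scaling by the median of ratios. CLDN7 differed by -0.88 (SE 0.29, adjusted p = 0.102), by -0.30 without DMSO replicate 2 and by -1.46 without DMSO replicate 1, when it passed (adjusted p = 0.00153). S100A14 differed by -0.39 (SE 0.23, adjusted p = 0.353). KRT8 (0.30, SE 0.11, adjusted p = 0.116) and KRT18 (0.30, SE 0.08, adjusted p = 0.0531) were higher in both libraries without passing. Values for KRT7 (0.27), CDH1 (0.10) and KRT19 (-0.12) changed sign when 1 library was left out. Without DMSO replicate 2, 0 of the 10 passed the limma test (4 at an unadjusted p under 0.05), without PFOS replicate 1 only CLDN4 did, and EPCAM also missed it with only the libraries compared (adjusted p = 0.0724).

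**Figure D1:**
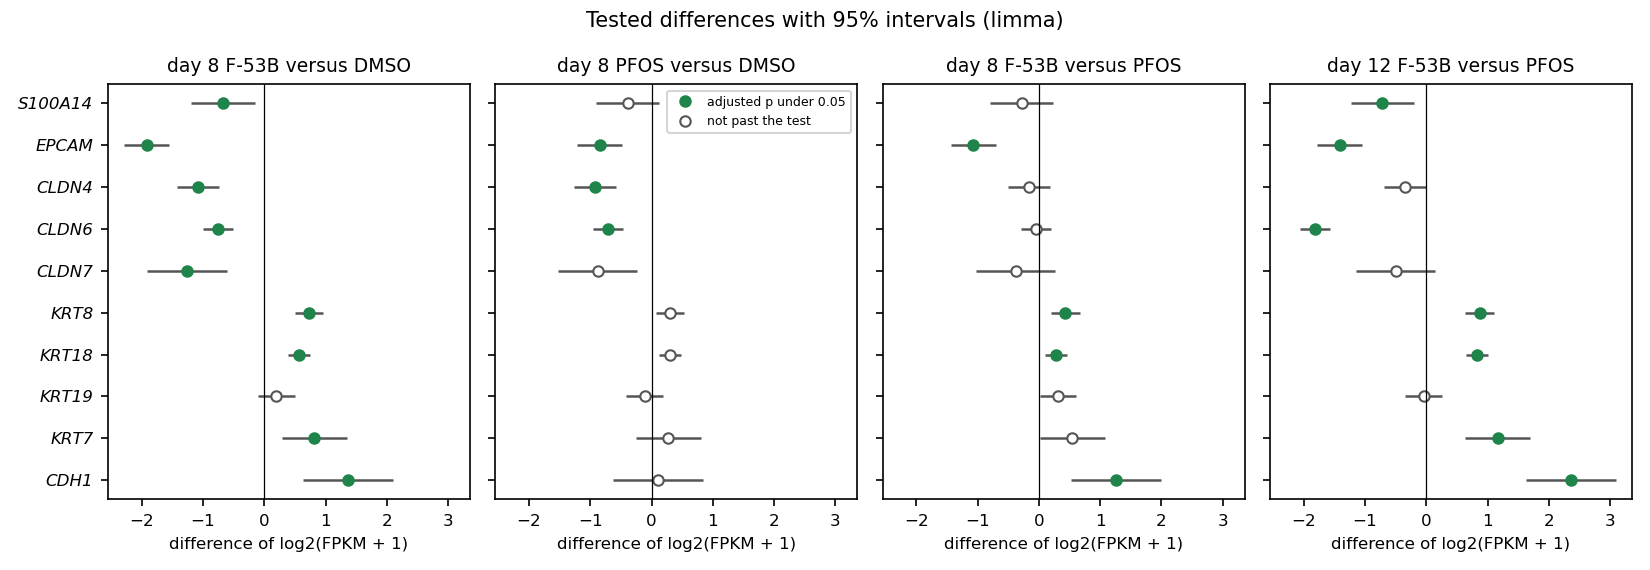
The horizontal axis is the difference of log2(FPKM + 1) between the groups named above each panel, the first minus the second, for the 10 genes on the vertical axis. Points are limma estimates, filled where the adjusted p is under 0.05, and bars are 95% intervals. The 5 upper genes lie left of 0 and KRT8, KRT18 and CDH1 right of 0 in all 4 panels, with KRT19 nearest to 0 in the last.

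The compounds were compared with each other at the same dose. At day 8, KRT8 was higher with F-53B than with PFOS by 0.43 on the log2 scale (SE 0.11, limma adjusted p = 0.0114), KRT18 by 0.27 (SE 0.08, adjusted p = 0.0286) and CDH1 by 1.26 (SE 0.32, adjusted p = 0.0213). EPCAM was lower with F-53B by 1.07, written as -1.07 on that scale (SE 0.17, adjusted p = 0.00175). These 4 of 10 stand against 28.3% of all genes, of which 47% of the called were higher with F-53B, or 59.2% after scaling to equal totals. CLDN4 differed by -0.16 (95% interval -0.51 to 0.18, adjusted p = 0.464), CLDN7 by -0.38 (-1.03 to 0.26, adjusted p = 0.35), S100A14 by -0.28 (-0.80 to 0.23, adjusted p = 0.389) and CLDN6 by -0.05 (-0.30 to 0.19, adjusted p = 0.753), which was 0.01 after scaling to equal totals. KRT7 (0.55, interval 0.01 to 1.08, adjusted p = 0.113) and KRT19 (0.31, interval 0.02 to 0.61, adjusted p = 0.102) did not pass either, although KRT7 did without PFOS replicate 1 (0.94, adjusted p = 0.00961) and KRT19 with only the libraries compared (adjusted p = 0.0193). The calls for KRT8, KRT18 and CDH1 ended without either F-53B library and without PFOS replicate 2 (adjusted p up to 0.116, 0.215 and 0.146), and that of KRT18 also with only the libraries compared (0.0514), while EPCAM passed without each library in turn.

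At day 12 the estimated difference between the compounds was larger in size than at day 8 for each gene but KRT19. The change between days, given below, passed its test for CLDN6 and KRT18 only. The libraries are those the choice of genes had used, although that choice rested on falls with both compounds and not on a difference between them. CDH1 was higher with F-53B than with PFOS by 2.36 on the log2 scale (SE 0.32, limma adjusted p = 0.000473), KRT7 by 1.16 (SE 0.24, adjusted p = 0.00234), KRT8 by 0.87 (SE 0.11, adjusted p = 6.28e-05) and KRT18 by 0.83 (SE 0.08, adjusted p = 1.9e-05). CLDN6 was lower, at -1.81 (SE 0.11, adjusted p = 3.44e-06), as were EPCAM at -1.42 (SE 0.17, adjusted p = 7.36e-05) and S100A14 at -0.72 (SE 0.23, adjusted p = 0.0253). The tests of S100A14, KRT7 and CLDN4, whose falls at day 12 led to the choice, are not counted against the background. The p-values of these 3 genes come from values that the choice had used and are given as description only. Of the other 7 genes 5 passed, against 47.9% of all genes. CLDN4 (-0.35, 95% interval -0.69 to 0, adjusted p = 0.0922) and CLDN7 (-0.50, -1.14 to 0.15, adjusted p = 0.185) did not pass, and neither did KRT19 (-0.04, -0.34 to 0.25, adjusted p = 0.809), which was 0.04 after scaling to equal totals. With an added 0.1 FPKM both claudins passed, at -1.05 (adjusted p = 0.0283) and -1.61 (adjusted p = 0.0202), and CLDN7 also with only the libraries compared (adjusted p = 0.0274). S100A14 lost its call without F-53B replicate 2 or without either PFOS library (adjusted p up to 0.127), and KRT7, KRT8, KRT18, CDH1, CLDN6 and EPCAM passed without each library in turn.

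Whether the difference between the compounds itself differed between the days was tested by a term chosen after seeing the data. It passed for 2 of 10 genes, CLDN6 (-1.76, SE 0.16, limma adjusted p = 0.000171) and KRT18 (0.55, SE 0.12, adjusted p = 0.0119), against 12.7% of all genes. CLDN6 went from -0.05 at day 8 to -1.81 at day 12, and KRT18 from 0.27 to 0.83. Of the others, CDH1 had the largest value, 1.10 (SE 0.45, adjusted p = 0.152). KRT18 lost the call without day 8 F-53B replicate 2 (adjusted p = 0.0583). CDH1 passed without day 12 F-53B replicate 1 (1.63, adjusted p = 0.00306), as did KRT8 (0.55, adjusted p = 0.0304), which also passed without day 12 PFOS replicate 1 (adjusted p = 0.0334). KRT7 passed without day 8 PFOS replicate 2 (1.02, adjusted p = 0.0405) and KRT19 without day 12 PFOS replicate 2 (-0.58, adjusted p = 0.0339).

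For the comparisons with DMSO at day 12, only the separation of libraries is given. Both F-53B libraries lay below both DMSO libraries for S100A14, KRT7, EPCAM, CLDN4, CLDN6 and CLDN7, and above them for KRT8, KRT18 and CDH1. With PFOS, the same genes and CDH1 lay below, and KRT8 and KRT18 above. S100A14, KRT7 and CLDN4 were chosen for these falls, so they are not counted against the background. Of the other 7 genes, EPCAM, CLDN6 and CLDN7 lay below with F-53B, against 39.8% of all genes tested. KRT8, KRT18 and CDH1 lay above, against 40.8%. With PFOS, EPCAM, CLDN6, CLDN7 and CDH1 lay below, against 26.4%, and KRT8 and KRT18 above, against 30.4%. KRT19 overlapped DMSO with both compounds.

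Over the 12 libraries, log2(FPKM + 1) of KRT8 and KRT18 correlated at r = 0.987, CLDN4 and CLDN7 at 0.96, S100A14 and CLDN4 at 0.93, and EPCAM and CLDN6 at 0.9. KRT8 ran against EPCAM (r = -0.92) and against CLDN6 (-0.89). CDH1 ran against EPCAM at -0.806, although both are adhesion genes of epithelia. KRT7 was close to unrelated to EPCAM (0.064) and CLDN6 (0.027). These values describe 12 libraries that share 6 groups, and libraries of a group are alike in treatment and day.

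The genes nearest in pattern were sought among 10875 genes by r over the 6 group means. For CLDN4 they were NPPB, IGSF3, C8orf4, CLDN7 and GDF15 (r from 0.979 to 0.994). NPPB encodes a natriuretic peptide of heart muscle and had means of 15.1 FPKM with DMSO, 2.44 FPKM with F-53B and 2.24 FPKM with PFOS at day 8, and 116.7, 1.92 and 6.11 FPKM in the same order at day 12. For S100A14 they were F2RL1, CST1, RAPGEF2, CD55 and PRELID3B (r from 0.984 to 0.990), of which CST1, a cystatin, had a mean of 12.2 FPKM with DMSO at day 12 and at most 0.46 FPKM in any other group. For EPCAM they were RASSF8, PRKAG2, SELT, LRPPRC and MLF1 (r from 0.997 to 0.999), and for CLDN6 they included BCAT2, PRMT5, RITA1 and MROH1 (0.991 to 0.994). For CDH1 they were ARF4, VTA1, SIPA1L3, MFSD14B and HIVEP1 (0.989 to 0.994). KRT19 was nearest to STAC, TACC3, ING1, SLC39A4 and MOGS (0.994 to 0.997), and KRT7 to RAVER2, TNFAIP1, ZFAND5, SCYL2 and TXLNG (0.963 to 0.980). With 6 means, high r values are easy to reach.

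The rest of the families moved unevenly. Shares of a list called with F-53B at day 8 are to be read beside the 44% of all genes called, with PFOS at day 8 beside 6.77%, and for the compounds against each other at day 12 beside 47.9%. Of 39 other keratins 5 passed the filter, and with F-53B at day 8 the test was passed by 4 of them, all higher (80.0%, median of the 5, 0.93). Of 17 other claudins 9 passed the filter. With F-53B at day 8, 6 of those were lower and 1 was higher (77.8%, median -0.56), and with PFOS 0 passed by limma (5 at an unadjusted p under 0.05). CLDN9, which lies 206 bases from CLDN6, was 4.15 and 3.54 FPKM with DMSO at day 12, 0.91 and 0.14 FPKM with F-53B and 3.6 and 3.51 FPKM with PFOS. Its order at day 12 was that of CLDN6, with F-53B lowest. CLDN3, the near relative of CLDN4 at 29271 bases from it, was at most 1.65 FPKM. The claudin that rose with F-53B at day 8 was CLDN15, named here after its values were seen (1.19, limma adjusted p = 0.000508). At day 12 it had 1.28 and 1.49 FPKM for DMSO at day 12, 15.7 and 23.5 FPKM for F-53B and 4.20 and 3.62 FPKM for PFOS. CLDN11, also named after its values were seen, was higher with F-53B at day 12 too, at 1.88 and 2.85 FPKM against 0.97 and 0.71 FPKM with DMSO. Of 18 other S100 genes 10 passed the filter, and with F-53B at day 8, 3 were higher and 2 lower, 5 of the 10 and so near the share of all genes.

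Junction partners of these proteins were followed in lists. Among adherens junction and desmosome genes 16 of 20 were tested. With F-53B at day 8, 11 were higher and 3 lower (87.5% called, median 0.60), with PFOS 1 was higher (6.25%), and at day 12 F-53B exceeded PFOS for 11 and was below it for 2 (81.2%, median 0.35). CDH3 rose with F-53B at day 8 by 1.06 (SE 0.14, limma adjusted p = 0.000189), CTNNB1, the beta-catenin that binds cadherin tails, by 0.74 (adjusted p = 0.000168) and JUP, plakoglobin, by 0.42 (adjusted p = 0.00159). CDH2 fell by 1.02 (adjusted p = 4.66e-05).

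Tight junction genes were mixed, in contrast: of 16 tested, 5 were higher and 4 lower with F-53B at day 8 (56.2%, median 0.01), and none higher and 3 lower with PFOS (18.8%). LSR, the tricellular junction receptor, rose with F-53B by 0.93 (limma adjusted p = 0.000231) and the scaffold TJP1 by 0.47 (adjusted p = 0.00256), whereas CGNL1 (-0.17, adjusted p = 0.22) did not pass and PRKCZ rose by 0.29 (adjusted p = 0.0161). Among 20 epithelial surface and protease genes, 15 tested, 3 were higher and 4 lower with F-53B at day 8, a share of 46.7% that is near that of all genes. CD24, a surface glycoprotein, fell by 0.59 (adjusted p = 0.000774). SPINT1, an inhibitor of surface proteases, rose by 0.88 (adjusted p = 0.00178).

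The transcription factors and splicing factors of epithelia were scarce: 4 of 18 passed the filter. The transcription factors GRHL1, GRHL2, GRHL3, OVOL1 and OVOL2 were each under 1 FPKM in all 12 libraries. KLF5 rose with F-53B at day 8 by 0.78 (limma adjusted p = 0.00024), and ESRP1, which directs epithelial splicing, was higher with F-53B than with PFOS at day 12 by 1.83 (adjusted p = 1.99e-05). Of 11 mesenchymal genes tested, 5 were higher and 2 lower with F-53B at day 8 (63.6%), among them COL3A1 (0.61, adjusted p = 0.00103) and FN1 (-1.85, adjusted p = 2.79e-06), while VIM differed by -0.03 (adjusted p = 0.783).

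Marker genes of several cell types also moved. Of 14 endoderm and hepatic markers tested out of 16, 10 were lower and 2 higher with F-53B at day 8 (85.7%, median -0.98), and 3 were lower with PFOS (21.4%, median -0.54). Their summed level at day 8 was 70.4 to 132.1 FPKM with DMSO, 40.6 to 44.3 FPKM with F-53B and 47.9 to 63.1 FPKM with PFOS. At day 12 it was 522.8 to 739.9, 19.4 to 33.3 and 205.7 to 291.3 FPKM for the groups as listed. DMSO was highest and F-53B lowest, as for S100A14, CLDN6 and EPCAM at that day. Cardiomyocyte sums at day 12 had that order too (DMSO 12290 to 12390, PFOS 10480 to 11230, F-53B 1302 to 2969 FPKM). So did endothelial sums (DMSO 72.8 to 73.8, PFOS 61.3 to 71.8, F-53B 44.7 to 47.8 FPKM). AFP, made by fetal liver and yolk sac, was 311.9 and 221.9 FPKM with DMSO at day 12, 8.18 and 3.17 FPKM with F-53B and 86.2 and 134.8 FPKM with PFOS. In the day 8 F-53B libraries, 3 of the 16 markers were listed at 0, FOXA2 and APOA2 in both, TTR in the first and SOX17 in the second, and FOXA2 was also at 0 in day 12 F-53B replicate 2. The part of endoderm cells in the falls of S100A14, the claudins and EPCAM was not tested, and in these bulk samples fewer cells of a type and less RNA per cell cannot be told apart.

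Within each day, the summed epicardial and mesothelial markers had the order of KRT8 and KRT18, which was F-53B, PFOS, DMSO. At day 8 their PFOS and DMSO sums overlapped. The summed fibroblast and surface ectoderm lists given below also had this order within each day. Between days it did not hold: KRT18 was higher with PFOS at day 8 than with F-53B at day 12, and the epicardial sum was lower. Of the 12 epicardial and mesothelial markers, 11 were higher with F-53B at day 8 (91.7%, median 1.14) and 3 with PFOS (25.0%, median 0.44). All 12 were higher with F-53B than with PFOS at day 12. The list summed to 358.9 to 435.8 FPKM with DMSO, 1037 to 1113 FPKM with F-53B and 413 to 561.8 FPKM with PFOS at day 8, and to 98.0 to 101.9, 945.2 to 1290.0 and 250.5 to 256.9 FPKM at day 12. None of the 12 was at 0 in any library. UPK3B, a uroplakin of mesothelium, was 4.11 and 3.92 FPKM with DMSO at day 12, 148.7 and 238.7 FPKM with F-53B and 24.7 and 19.9 FPKM with PFOS. CDH1 followed the list with F-53B, but with PFOS at day 12 CDH1 was below DMSO while the list was above it. The part of these cells in the levels of KRT8, KRT18 and CDH1 was not tested.

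Further cell types moved beside the 10 genes. Of 10 fibroblast and stroma markers, 9 were higher and 1 lower with F-53B at day 8 by limma (median 1.01), and they summed to 1663 to 1843 FPKM with DMSO, 3295 to 3368 FPKM with F-53B and 1954 to 2496 FPKM with PFOS. At day 12 the sums were 412.6 to 424.0, 1972 to 2309 and 866.4 to 994.9 FPKM in the same order. All 12 cardiomyocyte markers were lower with F-53B at day 8 (median -3.18), and with PFOS 0 passed (median -0.63). Their sums were 6865 to 9009 FPKM for DMSO, 1250.0 to 1311 FPKM for F-53B and 3877 to 6020.0 FPKM for PFOS. Of 8 endothelial markers tested out of 10, 6 were lower with F-53B at day 8 (median -1.13), and they summed to 102.3 to 114.6 FPKM with DMSO and 77.6 to 78.6 FPKM with F-53B. The part of these cell types in the levels of the 10 genes was not tested.

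Among the 12 surface ectoderm and trophoblast markers, TP63, KRT5 and KRT14 of surface ectoderm were at most 0.54 FPKM in any library, and 2 passed the filter, IGFBP3 and GATA3, which other cells also make. The list summed to 51.5 to 61.8 FPKM with DMSO, 139.8 to 149.8 FPKM with F-53B and 91.4 to 104.1 FPKM with PFOS at day 8, and to 49.24 to 52.98, 172.5 to 235.3 and 72.8 to 78.4 FPKM at day 12. The sum followed IGFBP3, a secreted binding protein of insulin-like growth factors, at 32.5 and 40.9 FPKM with DMSO and 124.6 and 135.5 FPKM with F-53B at day 8. Pluripotency markers, 10 genes, summed to 155.3 to 171.4 FPKM over all day 8 libraries and to 75.5 to 87.8 FPKM over all day 12 libraries, but single genes moved: of 9 tested, 4 were higher and 1 lower with F-53B at day 8 (55.6%). TDGF1, a co-receptor of NODAL named after its values were seen, was 12.9 and 13.6 FPKM with DMSO at day 8 and 1.70 and 1.94 FPKM with F-53B, a fall of 2.34 on the log2 scale (limma adjusted p = 0.000101). The part of pluripotent cells in the levels of EPCAM and CLDN6 was not tested.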

How the data were processed

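The authors deposited 1 table per library with FPKM per gene to 2 decimals, per the file headers. The submitters' processing notes name HISAT, Bowtie2 and RSEM and the build GRCh38 patch 11, and versions and the order of steps are not given in the sources used here. Each library lists 20042 genes, 1002 of them with no value in any library. Between 8 and 10 further rows per file carry no gene ID and were left out.

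The members and gene lists were chosen with earlier results of these data known. Named genes beside the 10, some of which are not reported here, are their closest relatives and neighbours, family genes with a mean of at least 10 FPKM, up to 4 genes of highest mean per list, and the 5 nearest patterns; CLDN11, CLDN15, TDGF1, the heart genes and IGFBP3 named with values, and the markers named for values at or near 0 were added after their values were seen. FPKM were taken as log2(FPKM + 1) without further scaling. The 14080 genes that reached 1 FPKM in 2 or more libraries entered a group-means fit of all 12 libraries (6 residual degrees of freedom) with limma 3.58.1 in R 4.3.3, with trend and robust moderation, two-sided, with Benjamini-Hochberg adjustment over those genes. The script was tested on simulated data. Intervals are 95% limits, not corrected for the number of genes. Alternatives were a pseudocount of 0.1, no filter, scaling to equal totals or by the median of ratios, a replicate block, only the libraries compared, and leaving out each library. Depth is unknown.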

Additional observations from a re-analysis of the deposited data

Results flagged for a closer look

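The gap between F-53B and PFOS was not the same on both days for CLDN6, by a term of the limma fit chosen after seeing the data: it went from -0.05 on the log2 scale at day 8 to -1.81 at day 12, a change of -1.76 (adjusted p = 0.000171), and the call held without each library in turn. The same change for KRT18 was 0.55 (adjusted p = 0.0119), with both F-53B libraries above both PFOS libraries on each day.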

How the results depend on the processing

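Over the 10 genes and 10 alternatives of each comparison, direction and side of the threshold held in 90 of 100 for F-53B and for PFOS against DMSO at day 8, in 86 for the compounds against each other at day 8 and in 91 at day 12. The full fit called 44% of all genes for F-53B and 6.77% for PFOS at day 8. Between the compounds it called 28.3% at day 8 and 47.9% at day 12, and 12.7% for the difference between days. Counts below cover all 10 genes, including S100A14, CLDN4, CLDN7 and KRT7, which the Results leave out beside some of these shares. Without 1 library each, the number of genes past the limma test ranged from 6 to 8 for F-53B at day 8 (9 in the full fit), from 0 to 4 for PFOS at day 8 (3), from 1 to 5 for F-53B against PFOS at day 8 (4), from 6 to 7 at day 12 (7) and from 1 to 4 for the difference between days (2). With only the libraries of a comparison, the genes of the whole table called fell from 953 to 437 for PFOS at day 8 and from 1783 to 1076 for the difference between days; without DMSO replicate 2 or PFOS replicate 1 the former was 170 or 181, and F-53B against PFOS at day 8 went from 3991 to 1191 without PFOS replicate 2. Small values changed sign, and the cause was not tested: CLDN6 between the compounds at day 8 was 0.014 after scaling to equal totals and ran from -0.195 to 0.09 without 1 library each (0.09 without PFOS replicate 2); KRT19 between them at day 12 was 0.038 after that scaling and ran from -0.267 to 0.178 (0.051 without F-53B replicate 1, 0.178 without PFOS replicate 1). With PFOS at day 8, leaving out 1 library gave -0.262 to 0.032 for KRT19, -0.125 to 0.673 for KRT7 and -0.189 to 0.398 for CDH1, and for the difference between days it gave -0.255 to 0.025 for CLDN7. Replicate numbers did not pair the samples: the deviations of same-numbered libraries correlated above 0.1 in 3 of 15 group pairs (r from -0.378 to 0.186). With the replicate block 8, 3, 4, 7 and 2 of the genes passed, in the order above, and the call lost at day 8 was that of S100A14 with F-53B (adjusted p = 0.0539). Genes near 0, S100A14, CLDN4 and CLDN7, rest on few reads of unknown number.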
